A study of Arabidopsis thaliana with 16 samples.

Results

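The WRKY genes of Arabidopsis thaliana encode a large family of plant transcription factors, and 48 of them, listed by their TAIR identifiers, were followed here through all 16 libraries of a proteasome inhibition experiment. The files list 33602 genes, and members were chosen by identifier. A member was described where at least 10 counts were found in 2 or more libraries, which held for 46 of the 48 members. The same 46 members were expressed enough to enter the test. Another 24 WRKY genes of the genome are outside the list and are described at the end as a comparison.

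WRKY proteins carry 1 or more copies of a DNA-binding domain named after a conserved run of its amino acids, and they bind a short DNA element called the W box. The family is divided by domain number and zinc finger type into group I, whose proteins carry a pair of these domains, the subgroups IIa to IIe, and group III. Many members act in defence against pathogens, in salicylic acid and jasmonic acid signalling, in leaf senescence or in nutrient stress, and several are themselves switched on by other WRKY proteins and by MAP kinases.

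Whole seedlings of the accession Col-0 were raised for 5 days in liquid medium under constant light. They were sampled untreated (4 libraries), 3 h after addition of 100 µM MG132 (4 libraries) and 24 h after it (4 libraries). MG132 is a peptide aldehyde that blocks the proteasome, which breaks down proteins marked with ubiquitin. The mutants rpn10-1 (2 libraries) and rpn12a-1 (2 libraries), which carry insertions in genes for subunits of the regulatory particle of the proteasome, were sampled untreated at the same age. No mock-treated group is among these libraries. Medium was renewed when MG132 was added and the 24 h seedlings were older at harvest, so effects of MG132, of fresh medium and of age cannot be told apart. Nothing in the labels says that replicates were separate cultures, so p-values cover only the spread among these libraries, and that spread may be technical.

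The libraries held 6646134 to 21762565 counts. RPN10 stood at 21.4 and 22.2 CPM (counts scaled to a common library size and corrected for composition) in rpn10-1, against 98.6 to 136 CPM in untreated Col-0. RPN12A stood at 42.9 and 52 CPM in rpn12a-1, against 73.6 to 102 CPM in untreated Col-0. A note on a technical replicate is attached to 8 libraries (replicates 3 and 4 of each Col-0 group and both rpn12a-1 libraries) and missing from 8, including both rpn10-1 libraries. These 2 library sets were a term in the model, so each mutant was sampled in 1 set only and its set effect was estimated from Col-0. The labels call this material whole seedlings, and the shoot markers (4 genes) and root markers (5 genes) were counted in every group.

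In untreated seedlings the members covered a wide range of levels. Per kilobase of exon, WRKY39 stood highest at 20.9 CPM, followed by WRKY15 at 20.1 and WRKY65 at 17.6 CPM per kilobase. WRKY33, a regulator of camalexin synthesis and of resistance to necrotrophic fungi, stood at 14.8 CPM per kilobase. At the other end WRKY54, WRKY38, WRKY8 and WRKY62 stood at 0.32, 0.166, 0.143 and 0.0167 CPM per kilobase. WRKY62 was the member nearest to the limit of the rule, with 10 counts or more in 5 libraries and a highest count of 30. WRKY55 and WRKY12 fell outside it, with highest counts of 9 and 3. WRKY62, WRKY51, WRKY54, WRKY38 and WRKY8 reached 10 counts in only 5 to 8 libraries, mostly of the groups where they were high, so counts of called members carry this selection.

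Members were called where the adjusted p of the edgeR quasi-likelihood test over all 21205 tested genes was under 0.05. After 3 h of MG132, 10 of the 46 tested members were called (21.7%), beside 17.8 percent of all tested genes. Of these, 7 were higher and 3 lower, beside 8.6 and 9.23 percent of all genes. After 24 h, 20 of 46 were called (43.5%), beside 26.3 percent of all genes, with 18 higher and 2 lower, beside 12.6 and 13.7 percent. The direct comparison of 24 h with 3 h called 16 members (34.8%), beside 15.9 percent of all genes. Of these, 13 were higher and 3 lower at 24 h, beside 8.24 and 7.7 percent. The median log2 fold change of the tested members was 0.07 at 3 h and 0.32 at 24 h, beside -0.01 and -0.03 over all tested genes. These comparisons share libraries and are not independent of each other.

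**Figure D1:**
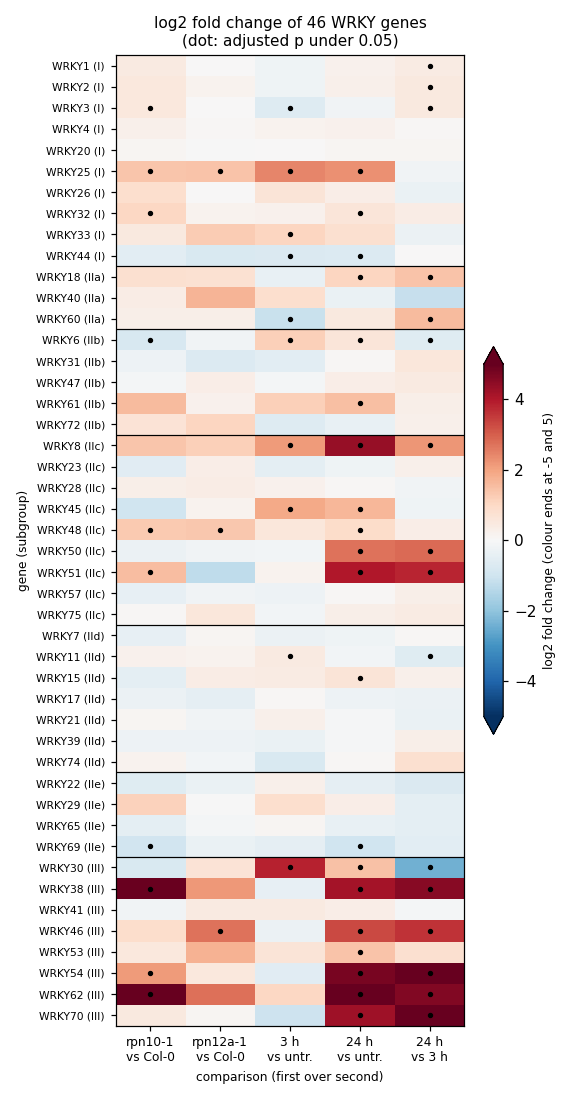
The log2 fold change of 46 WRKY genes (rows, by subgroup) in 5 comparisons (columns, first group over second), with red for higher and blue for lower, colours ending at -5 and 5, and a dot where the adjusted p was under 0.05. The 24 h columns hold the most dots, 20 against untreated and 16 against 3 h, and the deepest reds lie in group III.

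Among called members, the 6 largest rises at 3 h were those of WRKY30, WRKY25, WRKY8, WRKY45, WRKY6 and WRKY33. WRKY30, a group III gene known to respond to reactive oxygen species (AT5G24110, chromosome 5, 8153115 to 8154710, minus strand, TAIR10.1), had 17.9, 21, 10.3 and 2.97 CPM at 3 h, against 1.19, 1.33, 0.434 and 0.484 CPM in untreated Col-0. Every 3 h library lay above every untreated one, and the lowest 3 h value came from replicate 4. The log2 fold change was 3.86 (SE 0.45, edgeR adjusted p = 2.2e-05), the largest of any member at this time.

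WRKY25, a group I relative of WRKY33 with reported roles in heat and salt responses (AT2G30250, chromosome 2, 12903208 to 12905338, minus strand), had 55, 42.5, 51.1 and 52.6 CPM at 3 h, against 9.57, 10.5, 8.68 and 8.51 CPM in untreated Col-0. The 2 groups were far apart with little spread inside either, and the log2 fold change was 2.45 (SE 0.16, edgeR adjusted p = 3.4e-08). WRKY45, an activator of phosphate uptake, had 15.4, 8.94, 19.8 and 14.7 CPM at 3 h, against 4.69, 5.94, 3.4 and 2.07 CPM in untreated Col-0. No library overlapped, with a log2 fold change of 1.89 (SE 0.30, edgeR adjusted p = 0.00042). WRKY6, a regulator of senescence and of phosphate export, had 35.4, 29.1, 44.2 and 31.2 CPM at 3 h, against 17.2, 17.7, 14.5 and 11.3 CPM in untreated Col-0. Here too all 3 h libraries were higher, and the log2 fold change was 1.21 (SE 0.20, edgeR adjusted p = 0.00052).

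WRKY33 (AT2G38470, chromosome 2, 16108235 to 16110766, plus strand) had 72.4, 44.6, 76.2 and 63.5 CPM at 3 h, against 38.7, 24.3, 29.8 and 27.3 CPM in untreated Col-0. The groups did not overlap, but the call was marginal, with a log2 fold change of 1.09 (SE 0.35, edgeR adjusted p = 0.047). With the replicate number as a block the log2 fold change was again 1.09 and the adjusted p was 0.072. The call held without 3 h replicate 2, without untreated replicate 1 and without either rpn12a-1 library, and was lost without each of the other 12 libraries, with log2 fold changes of 1.00 to 1.10 and adjusted p of 0.055 to 0.12. WRKY33 also overlaps 2 annotated genes, AT2G08965 and AT2G38480, and the library kit does not mark strand, so reads from the overlaps cannot be told apart. The same limit holds for WRKY1, WRKY2, WRKY4, WRKY29, WRKY40, WRKY41, WRKY53 and WRKY61, each overlapping 1 annotated gene, and for WRKY69. PAD3, which encodes the last enzyme of camalexin synthesis and is a reported target of WRKY33, was higher at 3 h by a log2 fold change of 1.95 (SE 0.31, edgeR adjusted p = 0.00041).

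WRKY8, a regulator of salt and virus responses, had 0.591, 0.568, 1.66 and 1.11 CPM at 3 h, against 0.264, 0.102, 0.0723 and 0.346 CPM in untreated Col-0. These levels rest on few reads, and the log2 fold change of 2.13 (SE 0.64, edgeR adjusted p = 0.032) was lost without 3 h replicate 3 or 4 or untreated replicate 2 or 3, with log2 fold changes of 1.82 to 2.04 and adjusted p of 0.077 to 0.098. WRKY11, a negative regulator of basal resistance, had 33.1 to 40.8 CPM at 3 h, against 24.1 to 28.5 CPM in untreated Col-0, a log2 fold change of 0.45 (SE 0.12, edgeR adjusted p = 0.017). That call was lost without 3 h replicate 1 (log2 fold change 0.40, adjusted p 0.06) or untreated replicate 4 (0.39, adjusted p 0.066).

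Lower at 3 h were WRKY60, WRKY3 and WRKY44. WRKY60, which pairs with WRKY18 and WRKY40 in controlling basal defence, had 4.02, 4.83, 3.16 and 2.32 CPM at 3 h, against 7.59, 6.35, 9.26 and 6.78 CPM in untreated Col-0. All 3 h libraries were lower, and WRKY60 had a log2 fold change of -1.12 (SE 0.25, edgeR adjusted p = 0.0055). WRKY3, which acts in resistance to necrotrophs, had 14.9, 12.4, 15.5 and 22.3 CPM at 3 h, against 19.1, 22.3, 30.4 and 30.2 CPM in untreated Col-0, and fell by 0.63 (SE 0.13, edgeR adjusted p = 0.003). Its groups overlapped, since 3 h replicate 4 lay above untreated replicate 1, but within each library set both 3 h libraries lay below both untreated ones. WRKY44, known as TTG2 for its part in trichome and seed coat development, had 4.13, 3.27, 4.32 and 3.43 CPM at 3 h, against 4.75, 6.56, 7.67 and 6.22 CPM in untreated Col-0. It fell by 0.71 (SE 0.23, edgeR adjusted p = 0.049), with an adjusted p of 0.079 with the replicate block. Its call held without 3 h replicate 1, untreated replicate 1, 24 h replicate 2 or 4 or either rpn10-1 library, and was lost without each of the other 10 libraries, with log2 fold changes of -0.77 to -0.58 and adjusted p of 0.052 to 0.15.

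**Figure D2:**
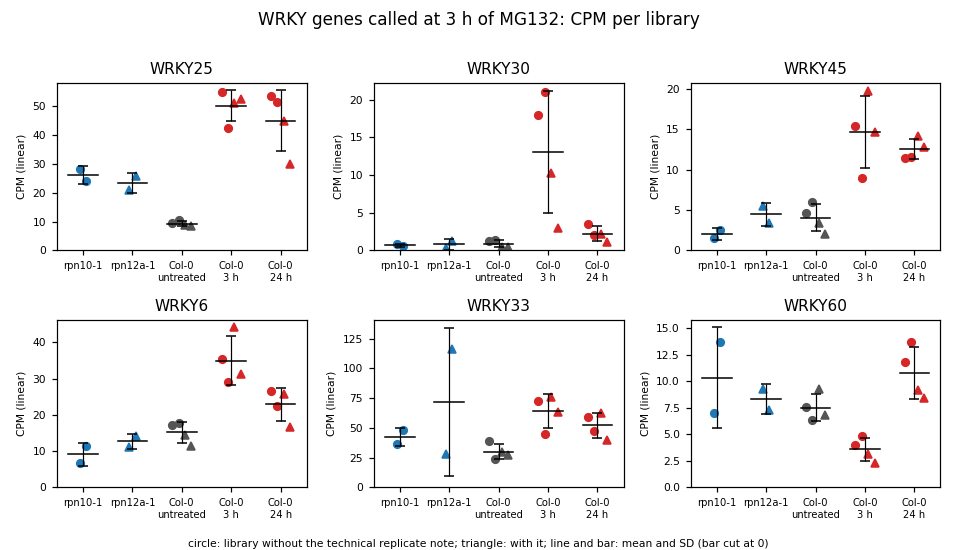
CPM (linear axis) of 6 WRKY genes called at 3 h, one point a library, in rpn10-1, rpn12a-1 and Col-0 untreated, at 3 h and at 24 h, with circles for libraries without the technical replicate note, triangles for those with it, and lines and bars for the mean and SD. WRKY25 and WRKY45 stayed high at 24 h, WRKY30 was high at 3 h, and 1 rpn12a-1 library stood far above the other for WRKY33.

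In subgroup IIa, which holds WRKY18, WRKY40 and WRKY60, WRKY60 was the gene called at 3 h. WRKY40, a repressor of defence genes that is rapidly induced by many stresses, had 20.7, 15.5, 12.8 and 7.51 CPM at 3 h, against 10.1, 8.71, 7.01 and 5.53 CPM in untreated Col-0, which did not pass the test (log2 fold change 0.84, SE 0.54, edgeR adjusted p = 0.33). Each 3 h library lay above the untreated library of the same number. In a fit of these 2 groups alone WRKY40 was called (0.83, adjusted p 0.0048), and with the replicate block it was not (0.85, adjusted p 0.35). WRKY18 had 18.3, 11.5, 8.65 and 9.74 CPM at 3 h, against 17.1, 18.2, 13.2 and 12.9 CPM in untreated Col-0 (log2 fold change -0.36, SE 0.27, edgeR adjusted p = 0.41). Of the 36 members not called at 3 h, log2 fold changes ran between -1.02 for WRKY70 and 1.18 for WRKY61.

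Within each library set WRKY30, WRKY25, WRKY45 and WRKY6 were called at 3 h, with WRKY30 at 3.78 with the technical replicate note and 3.94 without it. WRKY60 was at -1.57 with the note and at -0.69 without it (adjusted p 0.0022 and 0.28), and WRKY33 at 1.30 and 0.89 (adjusted p 0.26 and 0.12).

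The early members had different values at 24 h. WRKY25 remained high at 24 h, with 53.6, 51.4, 45.1 and 30.1 CPM (log2 fold change 2.27 against untreated, SE 0.16, edgeR adjusted p = 5.5e-08). WRKY45 had 11.5, 11.6, 14.2 and 12.8 CPM at 24 h (1.66, SE 0.30, edgeR adjusted p = 0.00082). For neither did the direct comparison of 24 h with 3 h pass the test. WRKY30 had 3.43, 2.08, 2.22 and 1.05 CPM at 24 h and was lower than at 3 h by a log2 fold change of -2.41 (SE 0.40, edgeR adjusted p = 0.00097), although still above untreated Col-0 (1.45, SE 0.47, edgeR adjusted p = 0.034). That remaining rise was lost without 24 h replicate 1 or 3 or any 1 untreated library, with log2 fold changes of 1.13 to 1.55 and adjusted p of 0.061 to 0.1.

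WRKY6 had 26.5, 22.6, 25.8 and 16.7 CPM at 24 h, a log2 fold change of 0.60 against untreated (SE 0.20, edgeR adjusted p = 0.035) and of -0.62 against 3 h (SE 0.19, edgeR adjusted p = 0.042), and the first of these was lost without 24 h replicate 1, 2 or 3 or untreated replicate 1, 3 or 4 (log2 fold changes 0.49 to 0.64, adjusted p 0.053 to 0.11). The second held without 24 h replicate 3, 3 h replicate 2, untreated replicate 4 or either rpn10-1 library and was lost without each of the others (-0.66 to -0.41, adjusted p 0.051 to 0.16). WRKY8 instead rose further, to 5.47, 4.26, 6.03 and 1.47 CPM at 24 h, with a log2 fold change of 2.21 against 3 h (SE 0.47, edgeR adjusted p = 0.0053) and of 4.34 against untreated (SE 0.55, edgeR adjusted p = 3.8e-05). WRKY60 was higher at 24 h than at 3 h by 1.60 (SE 0.25, edgeR adjusted p = 0.00047), with 11.8, 13.7, 9.2 and 8.43 CPM at 24 h, which did not differ from untreated Col-0 by the test (0.48, SE 0.23, edgeR adjusted p = 0.13). WRKY33 had 58.8, 47.6, 62.2 and 39.6 CPM at 24 h, each above every untreated library, with no call against untreated (0.79, SE 0.35, edgeR adjusted p = 0.11). It was called by DESeq2 (0.82, adjusted p 0.043), in a fit of these groups alone (0.82, adjusted p 0.011) and with no filter. Without rpn12a-1 replicate 2 (0.83) or rpn12a-1 replicate 1 (0.79) it was called too. With the replicate block or within either library set it was not.

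Called at 24 h and not at 3 h were 14 members. In group III, 7 of the 8 tested members were higher at 24 h, beside 12.6 percent of all tested genes, with a median log2 fold change of 3.73 over the 8, and 1 was higher at 3 h, beside 8.6 percent of all genes. WRKY62, WRKY54 and WRKY38 among them reached 10 counts in 5, 7 and 8 libraries, mostly where they were high. The count and the median carry this selection and are no test of the group. The named group III genes WRKY70, WRKY54, WRKY46, WRKY38 and WRKY62 were each also higher at 24 h than at 3 h in the direct test.

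WRKY70, an activator of salicylic acid responses that also represses jasmonic acid responses (AT3G56400, chromosome 3, 20908711 to 20910623, minus strand), had 2.84, 3.59, 2.17 and 2.14 CPM in untreated Col-0, 1.95, 0.71, 1.16 and 1.21 CPM at 3 h, and 87, 57, 48.5 and 19.4 CPM at 24 h. At 24 h each library was several times above any untreated one, and replicate 4 was the lowest. The log2 fold change against untreated was 4.25 (SE 0.34, edgeR adjusted p = 4.7e-07). At 3 h the 4 libraries all lay below the untreated ones, without passing the test (-1.02, SE 0.42, edgeR adjusted p = 0.11). WRKY70 was called lower at 3 h in a fit of these 2 groups alone (-0.97, adjusted p 0.03), by DESeq2 (-1.02) and without 24 h replicate 4 (-0.99, adjusted p 0.036).

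WRKY54, which acts with WRKY70 in salicylic acid signalling and leaf senescence (AT2G40750, chromosome 2, 17000419 to 17002528, minus strand), had 0.396, 0.307, 0.506 and 0.622 CPM in untreated Col-0, 0.354, 0.284, 0 and 0.464 CPM at 3 h, and 17.5, 11.4, 16.9 and 5.48 CPM at 24 h. It rose by 4.74 over untreated (SE 0.51, edgeR adjusted p = 7.8e-06). WRKY46, a close relative with roles in basal resistance and drought (AT2G46400, chromosome 2, 19043411 to 19044955, minus strand), had 2.05, 1.02, 0.94 and 0.899 CPM in untreated Col-0, 1.59, 1.42, 0.333 and 0.742 CPM at 3 h, and 23.1, 15.4, 9.9 and 4.63 CPM at 24 h. The 24 h libraries lay above all untreated and 3 h libraries, although 1 rpn12a-1 library and 1 rpn10-1 library were above the lowest of them, with a log2 fold change of 3.31 over untreated (SE 0.46, edgeR adjusted p = 0.00013).

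WRKY38 and WRKY62 encode closely related proteins that act together as negative regulators of basal defence. WRKY38 (AT5G22570, chromosome 5, 7495455 to 7496990, minus strand) had 0.132, 0.307, 0.289 and 0.138 CPM in untreated Col-0, 0.0591, 0.568, 0 and 0.0928 CPM at 3 h, and 3.65, 2.81, 7.17 and 1.76 CPM at 24 h (log2 fold change against untreated 4.15, SE 0.61, edgeR adjusted p = 0.00014). WRKY62 (AT5G01900, chromosome 5, 350925 to 352095, minus strand) was barely counted before treatment. It had 1 count over the 4 untreated libraries and 2 counts over the 4 libraries at 3 h. At 24 h it had 71 counts and 1.93, 1.9, 1.65 and 0.421 CPM, so that the ratio of 24 h to untreated was 75, with an exact 95% counting interval of 13 to 3000 (edgeR adjusted p = 0.00025). WRKY55, a group III gene outside the rule, averaged 0.481 ± 0.243 CPM at 24 h (SD, n = 4), against 0 counts in untreated Col-0, at least 8.54-fold higher than a floor of 3 counts over the untreated group.

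WRKY53, a regulator of the onset of leaf senescence, had 2.44, 2.46, 2.89 and 2.21 CPM in untreated Col-0, 6.2, 6.39, 2.5 and 1.95 CPM at 3 h, and 10.6, 7.33, 7.05 and 3.44 CPM at 24 h. Its 24 h rise of 1.42 (SE 0.42, edgeR adjusted p = 0.022) was lost without 24 h replicate 1 or 3 or untreated replicate 1 or 2, with log2 fold changes of 1.21 to 1.33 and adjusted p of 0.06 to 0.077. SAG12, a marker of late senescence, had 0 counts in all 16 libraries.

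**Figure D3:**
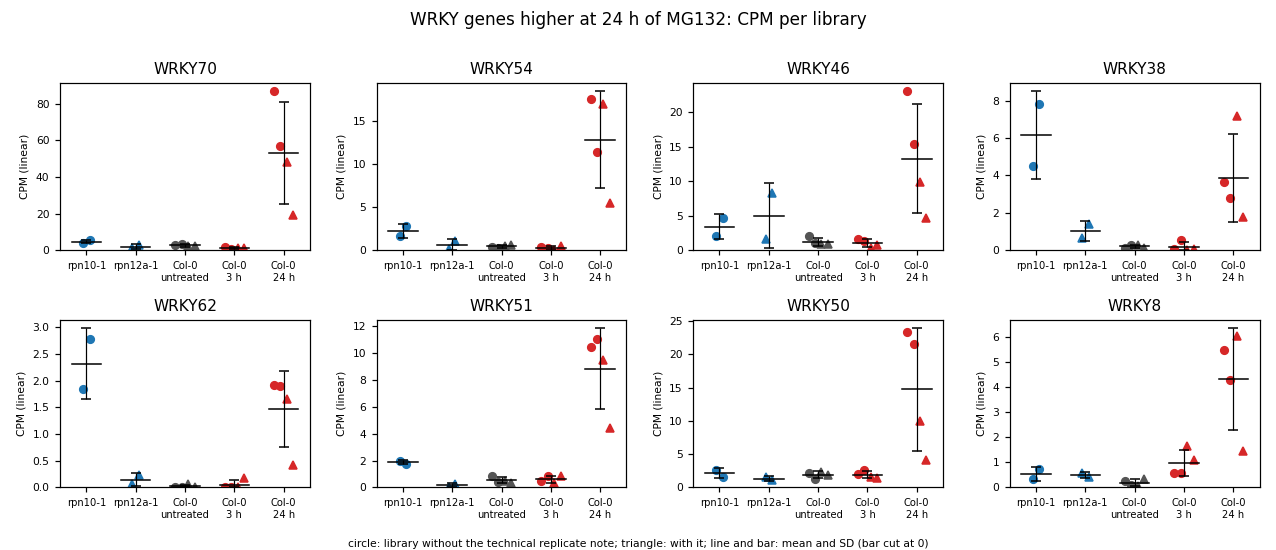
CPM (linear axis) of 8 WRKY genes higher at 24 h, one point a library, in rpn10-1, rpn12a-1 and Col-0 untreated, at 3 h and at 24 h, with circles for libraries without the technical replicate note, triangles for those with it, and lines and bars for the mean and SD. For WRKY70 and WRKY50 each 24 h library lay above each other library, whereas for WRKY38 and WRKY62 the rpn10-1 libraries also lay far above untreated Col-0.

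Outside group III, the late members with the largest rises belonged to subgroup IIc, where 5 of 9 tested members were higher at 24 h, beside 12.6 percent of all tested genes. This count carries the same selection, since WRKY51 and WRKY8 reached 10 counts in 7 and 8 libraries. WRKY50 and WRKY51 are reported to mediate the repression of jasmonic acid responses by salicylic acid. WRKY51 (AT5G64810, chromosome 5, 25908247 to 25909881, plus strand) had 0.858, 0.41, 0.506 and 0.346 CPM in untreated Col-0, 0.473, 0.852, 0.333 and 0.835 CPM at 3 h, and 10.4, 11, 9.46 and 4.42 CPM at 24 h (log2 fold change against untreated 3.99, SE 0.36, edgeR adjusted p = 9.2e-07). WRKY50 had 1.23 to 2.39 CPM in untreated Col-0, 1.48 to 2.7 CPM at 3 h and 4.14 to 23.4 CPM at 24 h (2.71, SE 0.38, edgeR adjusted p = 9.7e-05). For both, all 24 h libraries were above all earlier ones.

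Smaller late rises were those of WRKY18, WRKY61, WRKY48, WRKY15 and WRKY32. WRKY18 had 50.1, 37.8, 27 and 18.5 CPM at 24 h, against 17.1, 18.2, 13.2 and 12.9 CPM in untreated Col-0 (log2 fold change 1.06, SE 0.26, edgeR adjusted p = 0.0089). WRKY48, a negative regulator of basal resistance, had 5.69 to 8.69 CPM at 24 h, against 2.66 to 4.77 CPM in untreated Col-0 (0.91, SE 0.29, edgeR adjusted p = 0.03), a call lost without 24 h replicate 1, 2 or 3 or untreated replicate 2 or 4 (0.76 to 0.92, adjusted p 0.058 to 0.092). WRKY61 had 0.429, 1.81, 6.16 and 3.23 CPM at 24 h, against 0.858, 0.512, 1.95 and 0.415 CPM in untreated Col-0, and these groups overlapped. Its log2 fold change of 1.49 was lost without 24 h replicate 2 or 3 or untreated replicate 2 or 4 (1.05 to 1.51, adjusted p 0.059 to 0.13), and was 2.03 in the library set with the note and 0.69 in the set without it (adjusted p 0.031 and 0.46). WRKY15 rose by 0.64 and WRKY32 by 0.59. The call of WRKY32 was lost without 24 h replicate 1 or 2 or untreated replicate 1 (0.46 to 0.57, adjusted p 0.051 to 0.068). At 24 h WRKY40 had 6, 4.44, 7.36 and 6.04 CPM, within the untreated range or just below it, and was not called (-0.33, SE 0.56, edgeR adjusted p = 0.71). These values lay below every 3 h library (7.51 to 20.7 CPM), but the direct comparison did not call WRKY40 (-1.17). A fit of the 24 h and 3 h groups alone did (-1.16, adjusted p 0.03), as did the set without the note (-1.81, adjusted p 0.0063) and a fit with no filter. DESeq2 and the replicate block did not. WRKY40 was also called without rpn12a-1 replicate 1 (-1.17) and without rpn12a-1 replicate 2 (-1.13). WRKY75, which acts in phosphate starvation and senescence, had 1.91, 2.25, 2.53 and 0.83 CPM in untreated Col-0, 2.19, 1.14, 2.16 and 1.21 CPM at 3 h, and 1.72, 1.63, 3.36 and 2.32 CPM at 24 h, and was called in no comparison.

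Lower at 24 h were WRKY69, a member of subgroup IIe, and WRKY44. WRKY69 had 5.04, 5.25, 6.54 and 7.37 CPM at 24 h, against 12.3, 13.6, 12.6 and 9.89 CPM in untreated Col-0, with no overlap, and fell by 0.99 (SE 0.18, edgeR adjusted p = 0.00092). It overlaps the annotated genes AT3G09145 and AT3G58720, whose reads cannot be told apart without strand. WRKY44 had 3.75, 2.26, 4.25 and 5.48 CPM at 24 h and fell by 0.69 (SE 0.23, edgeR adjusted p = 0.038), a call lost without 24 h replicate 1, 2 or 3, untreated replicate 2 or 3, 3 h replicate 2 or 3 or rpn12a-1 replicate 2, with log2 fold changes of -0.73 to -0.52 and adjusted p of 0.051 to 0.13.

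Replicate 4 was the lowest 24 h library for 14 of the 18 members higher at 24 h. The share over all genes was not counted, so this is not shown to be particular to the family. Without that library 6267 of all genes were called at 24 h, against 5567 with it, and 20 members were called either way. The summed shoot markers stood at 11900 to 16500 CPM at 24 h, against 22100 to 30400 CPM in untreated Col-0, and all 4 fell. The summed root markers stood at 25.2 to 72.7 CPM, against 43.1 to 98.1 CPM. All 5 had lower means (median log2 fold change -0.73), and 1, SHR, was called, a call lost in 5 of 16 fits with 1 library left out. COBL9 had 0.643 and 0.181 CPM in the 24 h libraries without the note, against 5.65 and 3.86 CPM in those with it. EXPA7 (0.214 and 0.272, against 9.14 and 5.9) and CASP1 (6.65 and 11, against 38.2 and 31.7) were split likewise. WER and SHR differed less between the sets. The part of these shifts in the 24 h results was not tested, and in whole seedlings fewer cells of a type and less RNA per cell cannot be told apart. Analysed within the library set that carries the technical replicate note, 10 of 45 members were called at 24 h, beside 3686 of 20588 tested genes. Within the other set 18 of 46 were called, beside 5426 of 20487 tested genes. WRKY25, WRKY38, WRKY45, WRKY50, WRKY51, WRKY54, WRKY70 and WRKY8 were called within both, with WRKY70 at 4.01 with the note and 4.50 without it. In the set with the note, WRKY46 was at 3.01 (adjusted p 0.062), WRKY18 at 0.84 (adjusted p 0.27), WRKY53 at 1.08 (adjusted p 0.39) and WRKY69 at -0.66 (adjusted p 0.083), and WRKY62 was too low there to be tested.

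The element bound by the family occurs near the start of several members. The W box was searched as TTGACC or TTGACT on both strands, where it reads GGTCAA or AGTCAA on the reverse strand, in the 300 bases upstream of each annotated gene start of the RefSeq annotation of TAIR10.1. At least 1 was found for 22 of the 48 members (45.8%), beside 32.3% of 27443 protein-coding genes, and at least 2 for 10 members (20.8%), beside 7.91%. Among described members, it was found for 11 of the 24 called in any comparison with untreated Col-0 and for 9 of the 22 called in none. TGGGC, the core of an element of proteasome gene promoters, was found on either strand for 7 members (14.6%), beside 24.8% of all. A match is a description of letters and not a site known to be bound in these seedlings. The windows of 4 members are shown, the early genes WRKY30 and WRKY33 and the late genes WRKY62 and WRKY70, each written 5′ to 3′ on the strand of its gene with the base before the start last and W boxes in capitals. They lie at chr5:8154711-8155010 (minus), chr2:16107935-16108234 (plus), chr5:352096-352395 (minus) and chr3:20910624-20910923 (minus).

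WRKY30: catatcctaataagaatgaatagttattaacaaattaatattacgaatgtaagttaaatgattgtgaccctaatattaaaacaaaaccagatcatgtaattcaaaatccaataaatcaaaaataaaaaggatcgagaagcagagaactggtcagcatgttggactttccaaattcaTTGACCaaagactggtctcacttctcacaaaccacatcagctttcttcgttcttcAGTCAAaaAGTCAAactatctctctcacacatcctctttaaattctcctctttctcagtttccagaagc
WRKY33: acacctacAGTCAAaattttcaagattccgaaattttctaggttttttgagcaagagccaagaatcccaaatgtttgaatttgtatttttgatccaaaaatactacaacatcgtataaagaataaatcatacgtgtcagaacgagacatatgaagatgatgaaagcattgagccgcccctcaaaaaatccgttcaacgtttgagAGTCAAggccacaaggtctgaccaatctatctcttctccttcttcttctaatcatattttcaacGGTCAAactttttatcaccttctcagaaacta
WRKY62: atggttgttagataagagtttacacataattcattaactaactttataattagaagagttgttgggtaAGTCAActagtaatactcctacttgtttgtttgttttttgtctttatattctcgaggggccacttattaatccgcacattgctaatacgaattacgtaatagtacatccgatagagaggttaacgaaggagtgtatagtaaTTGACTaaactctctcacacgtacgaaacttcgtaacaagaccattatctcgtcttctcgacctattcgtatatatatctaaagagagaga
WRKY70: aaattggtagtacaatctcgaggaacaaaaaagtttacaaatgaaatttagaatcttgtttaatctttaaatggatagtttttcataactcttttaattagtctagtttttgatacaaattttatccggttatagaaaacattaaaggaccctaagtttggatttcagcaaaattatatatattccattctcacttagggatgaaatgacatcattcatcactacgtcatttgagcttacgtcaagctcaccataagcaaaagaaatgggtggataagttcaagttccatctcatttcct

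WRKY30 and WRKY33 hold 3 W boxes each and WRKY62 holds 2, whereas the window of WRKY70, whose 24 h rise was among the largest, holds 0. In WRKY33 the W boxes begin 292, 96 and 32 bases before the start. In WRKY30 they begin 124, 69 and 61 bases before it, the last 2 lying side by side, and in WRKY62 they begin 232 and 91 bases before it.

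In rpn10-1, 10 of the 46 tested members were called against untreated Col-0 (21.7%), beside 22.8 percent of all tested genes, a share near the background. Of these, 8 were higher and 2 lower, beside 11.3 and 11.4 percent of all genes. The 2 largest rises were those of WRKY62 and WRKY38. WRKY62 had 1.85 and 2.79 CPM in rpn10-1 (57 counts), against 0, 0, 0.0723 and 0 CPM in untreated Col-0 (1 count), a ratio of 120 with an exact 95% counting interval of 20.6 to 4810 (edgeR adjusted p = 0.00049). WRKY38 had 4.52 and 7.82 CPM in rpn10-1, against 0.132 to 0.307 CPM in untreated Col-0 (log2 fold change 4.93, SE 0.71, edgeR adjusted p = 0.00018). For this pair, both mutant libraries were far above each of the untreated ones, and both calls were kept under every alternative that gave a value and with each library left out.

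WRKY25 had 28.3 and 24.1 CPM in rpn10-1, against 8.51 to 10.5 CPM in untreated Col-0 (log2 fold change 1.40, SE 0.19, edgeR adjusted p = 0.00013), also kept throughout. WRKY54 had 1.64 and 2.79 CPM in rpn10-1, against 0.307 to 0.622 CPM in untreated Col-0 (2.13, SE 0.67, edgeR adjusted p = 0.033). WRKY51 had 1.98 and 1.77 CPM, against 0.346 to 0.858 CPM in untreated Col-0 (1.55, SE 0.47, edgeR adjusted p = 0.026), and WRKY48 had 6.16 and 11.7 CPM, against 2.66 to 4.77 CPM (1.31, SE 0.36, edgeR adjusted p = 0.017). For these 4, picked because they were called, the rpn10-1 libraries did not overlap untreated Col-0. The share of such genes over all genes was not counted. WRKY32 rose by 1.03 on the log2 scale and WRKY3 by 0.52, and both calls were lost with no library set term, at 0.69 (adjusted p 0.14) for WRKY32 and 0.29 (adjusted p 0.4) for WRKY3. WRKY32 was also lost without rpn10-1 replicate 1 (0.76, adjusted p 0.081), and WRKY3 without either rpn10-1 library or untreated replicate 1 or 2 (0.43 to 0.56, adjusted p 0.058 to 0.14). With 1 rpn10-1 or rpn12a-1 library left out, the single library that remains is assumed to vary like the other groups. Without rpn10-1 replicate 1, WRKY54 was at 2.48 and WRKY51 at 1.46, and neither was called. Without untreated Col-0 replicate 2 the count of called members was 5, beside 3047 of 21188 tested genes. With all libraries 4825 of 21205 genes were called. In that fit WRKY54 was at 1.97, WRKY51 at 1.40 and WRKY48 at 1.18 (adjusted p 0.093, 0.08 and 0.058). WRKY54 was lost as well without untreated replicate 1 or 3 or 24 h replicate 3 (1.87 to 2.19, adjusted p 0.051 to 0.1).

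WRKY69 was lower in rpn10-1, with 6.02 and 6.05 CPM, against 9.89 to 13.6 CPM in untreated Col-0 (log2 fold change -0.97, SE 0.24, edgeR adjusted p = 0.0096), with an adjusted p of 0.069 without rpn10-1 replicate 1. WRKY6 was lower as well, with 6.84 and 11.4 CPM, against 11.3 to 17.7 CPM in untreated Col-0 (-0.81, SE 0.27, edgeR adjusted p = 0.04), although its groups overlapped slightly and the fall was 0.48 without rpn10-1 replicate 1 (adjusted p 0.37). That call was lost without 6 other libraries too (log2 fold changes -0.82 to -0.70, adjusted p 0.052 to 0.12). At 3 h and 24 h of MG132, WRKY6 had instead been higher than untreated. WRKY70 had 4.11 and 5.49 CPM in rpn10-1, above the untreated range of 2.14 to 3.59 CPM, but was not called (0.47, SE 0.43, edgeR adjusted p = 0.46). WRKY18 had 27 and 41 CPM in rpn10-1, above the untreated range of 12.9 to 18.2 CPM, and was not called either (0.81). A fit of these 2 groups alone called WRKY18 (1.14, adjusted p 0.017), as did the set without the note (0.92, adjusted p 0.032) and a fit with no filter. It was not called by DESeq2 or with the replicate block. WRKY18 was also called without rpn12a-1 replicate 1 (0.81) and without rpn12a-1 replicate 2 (0.82). The seed storage genes CRA1, SESA3 and SESA1, counted as markers of seed RNA, summed to 39.3 CPM in rpn10-1 replicate 2 and 0.411 CPM in rpn10-1 replicate 1, against 1.25 to 2.68 CPM in untreated Col-0. Without rpn10-1 replicate 2, WRKY38 at 4.49, WRKY62 at 5.80 and WRKY25 at 1.51 were still called. So were WRKY32 at 1.25, WRKY6 at -1.21 and WRKY69 at -0.98. WRKY48 was at 0.78 (adjusted p 0.19), WRKY54 at 1.71 (0.15), WRKY51 at 1.63 (0.053) and WRKY3 at 0.53 (0.079), and these calls were lost.

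In rpn12a-1, 3 of the 46 tested members were called against untreated Col-0 (6.52%), beside 4.78 percent of all tested genes, and all 3 were higher, beside 2.61 percent of all genes higher and 2.17 percent lower. WRKY25 had 20.8 and 25.8 CPM in rpn12a-1, against 8.51 to 10.5 CPM in untreated Col-0 (log2 fold change 1.43, SE 0.19, edgeR adjusted p = 0.00018), and its call was kept under every alternative. WRKY48 had 7 and 13.2 CPM in rpn12a-1, against 2.66 to 4.77 CPM (1.33, SE 0.35, edgeR adjusted p = 0.038), a call lost without untreated replicate 2, 3 or 4, 24 h replicate 2 or 3 or 3 h replicate 1 (1.19 to 1.47, adjusted p 0.056 to 0.13). WRKY46 had 1.71 and 8.33 CPM, against 0.899 to 2.05 CPM (2.70, SE 0.56, edgeR adjusted p = 0.01). For WRKY46 the lower rpn12a-1 library lay inside the untreated range, and against the untreated libraries of the same set it was at 2.47 (adjusted p 0.17). With no library set term it was at 2.02 (adjusted p 0.12).

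The 2 rpn12a-1 libraries differed in many members. Replicate 2 was at least 2-fold above replicate 1 for 13 of the 46 members (28.3%), beside 2.77 percent of all tested genes, and the reverse was found for 0. Of the 13, WRKY62 and WRKY51 had only 6 and 7 counts over both libraries. In replicate 2, WRKY40 had 39.3 CPM, against 3.88 CPM in replicate 1. WRKY33 had 116 CPM in replicate 2 and 28.2 CPM in replicate 1, and WRKY53 had 10.9 CPM in replicate 2 and 2.29 CPM in replicate 1. WRKY18 had 29.6 CPM in replicate 2 and 10.9 CPM in replicate 1. Without replicate 2, WRKY25 was still called. WRKY46 and WRKY48 were not, with log2 fold changes of 1.15 and 0.82. Without replicate 1, WRKY40 was at 2.54, WRKY53 at 2.45, WRKY33 at 1.94 and WRKY18 at 1.31. In that fit rpn12a-1 is the 1 library in which these genes stood high, and its spread is taken from the other groups. In the rpn10-1 pair, replicate 2 was at least 2-fold above replicate 1 for 3 of the 46 members (6.52%), and the reverse was found for 0. The share over all genes was not counted for this pair. Over all genes the rpn10-1 libraries differed more, with a chi-square of counts per degree of freedom of 69.7, against 12.1 for the rpn12a-1 pair.

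**Figure D4:**
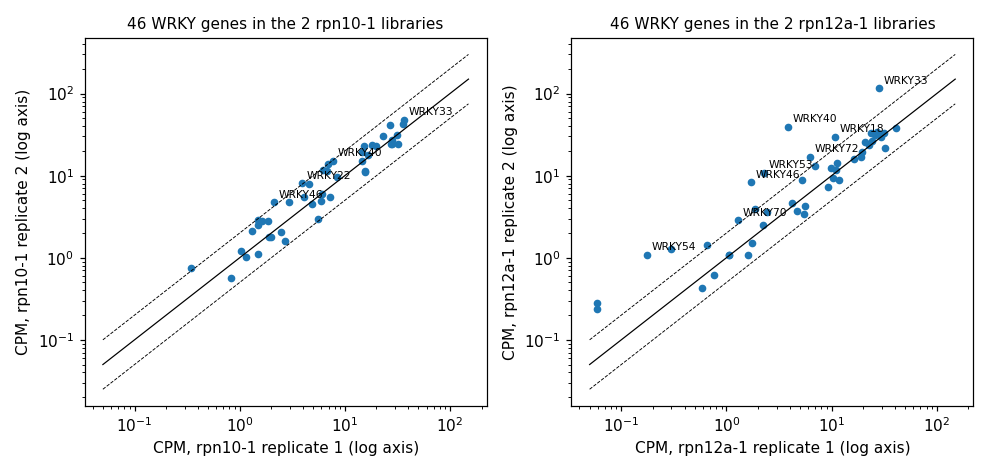
CPM of 46 WRKY genes in replicate 2 (vertical) against replicate 1 (horizontal) of rpn10-1 (left) and rpn12a-1 (right), both axes on a log scale, one point a gene, with a solid line for equal values and dashed lines at 2-fold. In rpn12a-1, 13 genes lie above the upper dashed line and 0 below the lower one.

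The comparisons of the mutants and of MG132 share the untreated Col-0 libraries, so their values are set side by side here without a test. The log2 fold change of WRKY25 was 1.40 in rpn10-1, 1.43 in rpn12a-1 and 2.27 at 24 h. That of WRKY48 was 1.31 in rpn10-1, 1.33 in rpn12a-1 and 0.91 at 24 h. WRKY69 was at -0.97 in rpn10-1 and -0.99 at 24 h, and WRKY6 at -0.81 in rpn10-1 and 0.60 at 24 h. In the direct comparison of rpn12a-1 with rpn10-1, 2 of 46 members were called (4.35%), beside 6.07 percent of all genes. Of these 1 was higher and 1 lower, beside 3.8 and 2.27 percent of all genes. WRKY51 was lower in rpn12a-1, with 0.0588 and 0.282 CPM, against 1.98 and 1.77 CPM in rpn10-1 (log2 fold change -2.83, SE 0.68, edgeR adjusted p = 0.023). WRKY15 was higher in rpn12a-1, with 23.8 and 32.9 CPM, against 18 and 23.4 CPM in rpn10-1 (0.86, SE 0.24, edgeR adjusted p = 0.048). The mutants were sampled in different library sets, so each difference rests on the set effect estimated from Col-0, and with no library set term WRKY15 was at 0.46 (adjusted p 0.4) and in a fit of the 2 mutants alone also at 0.46 (adjusted p 0.32). Both were lost without rpn10-1 replicate 1, at -2.73 (adjusted p 0.079) for WRKY51 and 0.68 (adjusted p 0.23) for WRKY15, and the call of WRKY51 was also lost without rpn12a-1 replicate 1, at -2.21 (adjusted p 0.14). That of WRKY15 was lost without rpn12a-1 replicate 2 (0.61, adjusted p 0.25), any 1 untreated library or 3 h replicate 1, 2 or 4 as well (0.80 to 0.89, adjusted p 0.055 to 0.077).

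WRKY62 and WRKY38 had higher values in rpn10-1 than in rpn12a-1, and neither passed this test. WRKY62 had 0.0588 and 0.235 CPM in rpn12a-1, against 1.85 and 2.79 CPM in rpn10-1 (log2 fold change -3.37, SE 1.05, edgeR adjusted p = 0.069). WRKY38 had 0.647 and 1.41 CPM in rpn12a-1, against 4.52 and 7.82 CPM in rpn10-1 (-2.74, SE 0.83, edgeR adjusted p = 0.063). With no library set term both were called, at -3.82 (adjusted p 0.019) for WRKY62 and -2.55 (adjusted p 0.045) for WRKY38, and DESeq2 called WRKY62 (-3.84, adjusted p 0.036). Without 24 h replicate 4 both were called too, at -4.05 (adjusted p 0.019) for WRKY62 and -3.13 (adjusted p 0.021) for WRKY38, and WRKY38 was also called without 3 h replicate 2 (-2.92, adjusted p 0.037).

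The 22 members called in none of the 4 comparisons with untreated Col-0 were WRKY1, WRKY2, WRKY4, WRKY7, WRKY17, WRKY20, WRKY21, WRKY22, WRKY23, WRKY26, WRKY28, WRKY29, WRKY31, WRKY39, WRKY40, WRKY41, WRKY47, WRKY57, WRKY65, WRKY72, WRKY74 and WRKY75. Their untreated means ran between 0.981 CPM for WRKY41 and 46.9 CPM for WRKY39. They include WRKY22 and WRKY29, reported downstream of the flagellin MAP kinase cascade, and WRKY28, a reported activator of the salicylic acid gene ICS1. WRKY1 and WRKY2 were called between 24 h and 3 h only, at 0.41 (SE 0.13, edgeR adjusted p = 0.046) and 0.47 (SE 0.15, edgeR adjusted p = 0.037). The call of WRKY1 held in 6 of 16 fits with 1 library left out and that of WRKY2 in 10 of 16, and the lost values ran from 0.34 to 0.45 (adjusted p 0.053 to 0.14) for WRKY1 and from 0.42 to 0.53 (adjusted p 0.051 to 0.099) for WRKY2.

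Gene lists around the family were counted in the same comparisons, beside 8.6 percent of all tested genes higher at 3 h and 12.6 percent higher and 13.7 percent lower at 24 h. Of the 25 salicylic acid defence genes and reported WRKY targets, all tested, 4 were higher at 3 h and 18 were higher and 1 lower at 24 h, with a median log2 fold change of 1.74 at 24 h. PR1, a marker of salicylic acid responses, had 7263 counts over the 24 h libraries, against 3 over the untreated ones, a ratio of 2560 with an exact 95% counting interval of 875 to 12400. The 24 h libraries had 358, 273, 44.2 and 15.6 CPM, with the lower pair in the library set with the note, and without 24 h replicate 1 the ratio was 1700. ICS1, the main enzyme of salicylic acid synthesis, rose by 1.80 at 24 h (SE 0.18, edgeR adjusted p = 2.7e-06). CYP81F2, which makes indole glucosinolates, was the list's smallest p at 3 h, with a log2 fold change of 3.66 (SE 0.20, edgeR adjusted p = 3.8e-09). PHO1, the phosphate exporter repressed by WRKY6, was the 1 member of the list that fell at 24 h, by 0.49 (SE 0.14, edgeR adjusted p = 0.016), and it fell by 0.62 in rpn10-1 (SE 0.18, edgeR adjusted p = 0.023). The 24 h call was lost without 24 h replicate 1 or 2 or untreated replicate 1 or 3 (-0.44 to -0.41, adjusted p 0.052 to 0.063), and that in rpn10-1 without either rpn10-1 library or untreated replicate 1 (-0.72 to -0.53, adjusted p 0.066 to 0.12).

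Of the MAP kinase genes upstream of WRKY proteins, 1 of 10 was higher at 3 h and 5 at 24 h, with MPK11 at 3.25 (SE 0.59, edgeR adjusted p = 0.0012) and 3.74 (SE 0.57, edgeR adjusted p = 0.00019). MKK1 and MKK2, with smaller p at 24 h, were higher by 1.26 and 0.8. Of 4 VQ proteins that bind WRKY factors, SIB1, a partner of WRKY33, was higher at 3 h, by 1.65 (SE 0.39, edgeR adjusted p = 0.008), and SIB1 and JAV1 at 24 h, by 2.83 and 0.77. Of the 24 other WRKY genes, 15 were tested, and 7 of these were higher at 24 h. WRKY63 had 39 counts over the 24 h libraries, against 3 over the untreated ones, a ratio of 13.7 with an exact 95% counting interval of 4.37 to 69.5. Its call was kept in all 14 fits with 1 library left out that tested it. WRKY59 had 32 counts, against 2, a ratio of 16.9 (interval 4.31 to 146), and its call was lost in 2 of 16 such fits. WRKY24 was higher by 1.80 (SE 0.55, edgeR adjusted p = 0.025), a call lost without 24 h replicate 2 or 3 or untreated replicate 1, 2 or 3 (1.53 to 1.87, adjusted p 0.054 to 0.093). In rpn10-1 the salicylic acid list had 1 gene higher and 2 lower, beside 11.3 and 11.4 percent of all genes, and PR1 was not called there (3 counts in rpn10-1 and 3 in untreated Col-0). In rpn12a-1, 2 of the 25 were higher, beside 2.61 percent of all genes. CBP60G, an activator of salicylic acid synthesis, rose by 1.87 (SE 0.39, edgeR adjusted p = 0.0091), against 1.12 without rpn12a-1 replicate 2 (adjusted p 0.32). PR1 had 11 counts in rpn12a-1, against 3 in untreated Col-0, a ratio of 5.1 with an exact 95% counting interval of 1.35 to 28.5. In rpn10-1 it had 3 counts. The model with the library set term put PR1 in rpn12a-1 at a log2 fold change of 4.61 against untreated Col-0 (edgeR adjusted p = 0.042). Against rpn10-1 the model gave 4.58 (edgeR adjusted p = 0.044). Both calls rest on few reads and on the set effect estimated from Col-0. The first call of PR1 was lost in 11 of 16 fits with 1 library left out and the second in 12 of 16. MPK3 rose by 0.72 in rpn12a-1 (SE 0.18, edgeR adjusted p = 0.032), against 0.33 without rpn12a-1 replicate 2 (adjusted p 0.58), and was also lost without untreated replicate 1, 2 or 4 or 3 h replicate 1 (0.69 to 0.73, adjusted p 0.051 to 0.078).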

How the data were processed

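Polyadenylated RNA of whole seedlings was sequenced with a TruSeq v2 kit, which does not mark strand. Per the submitters' processing notes, Trimmomatic, TopHat, Bowtie2, HTSeq and edgeR were used with the TAIR10 build, but no versions are given there. The deposited files hold the authors' raw counts, 1 table a library, as whole numbers over 33602 genes, with totals of 6646134 to 21762565. Where reads are not counted as unique molecules, counting intervals and floors cover counting error only.

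From these counts, genes were filtered by group with filterByExpr and scaled with TMM. They were tested with edgeR 4.0.16 (R 4.3.3, quasi-likelihood F-test, robust) in 1 model of 16 libraries with group and library set as terms. P-values were adjusted by Benjamini-Hochberg over 21205 genes, with a threshold of 0.05, and SE is the log2 fold change divided by the root of F. CPM use TMM-scaled library sizes. The floor for a group with no reads is 3 counts over the group. The test was tried on simulated counts with known changes. No pair of replicates held identical counts or agreed within sampling noise.

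Alternatives were DESeq2 (1.42.0) as a test, its size factors, other filters on low counts, no library set term, the groups compared alone, each library set alone, a replicate block and each library left out. Same-numbered libraries deviated together at 3 h against untreated (correlations of 0.394 to 0.685 over 4 pairs), but libraries of the same set with different numbers did so as well (0.467 to 0.651 over 4 pairs), and libraries of different sets did not (-0.753 to -0.367 over 8 pairs). These correlations thus follow the library set and do not single out the replicate number. The blocked value is given at 3 h where it changes a call. In the other comparisons the correlations lay between -0.258 and 0.482.

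Members shown library by library were those with the up to 6 largest rises and up to 6 largest falls among called members of each comparison with untreated Col-0, plus 12 defence, senescence and phosphate genes (WRKY33, WRKY18, WRKY40, WRKY60, WRKY70, WRKY54, WRKY53, WRKY46, WRKY38, WRKY62, WRKY6 and WRKY75). Genes named from the other lists were taken from the up to 3 called genes with the smallest p, and not all of those were named. Others were quoted for their tie to a member (PHO1, ICS1). Members, lists and tests were chosen with earlier results of these data known. Gene positions and upstream sequences are from the RefSeq annotation of TAIR10.1, not from the count files.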

Additional observations from a re-analysis of the deposited data

Results flagged for a closer look

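A sample far from the other 3 of its group was found in 6 of the 138 groups of 4 libraries checked over 46 members, and chance gives about 1 in 20. In WRKY38, 3 h replicate 2 stood at 0.568 CPM, and the other 3 h libraries were at or below 0.0928 CPM. In WRKY46, untreated replicate 1 stood at 2.05 CPM, above the other untreated libraries at 0.899 to 1.02 CPM. In WRKY62, untreated replicate 3 at 0.0723 CPM and 3 h replicate 4 at 0.186 CPM were the only libraries of their groups with a count. Both WRKY62 flags rest on 1 and 2 counts, so the chance rate does not apply to them. In WRKY28, untreated replicate 3 stood low at 1.16 CPM, and in WRKY2, 3 h replicate 2 stood low at 6.67 CPM.

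The effect of 24 h of MG132 differed between the library sets for 2 of 45 members tested for it, beside 1422 of 20138 genes. The log2 fold change of WRKY22 was higher by 2.01 in the set with the technical replicate note (edgeR interaction, adjusted p = 0.00464), at 0.46 in that set and -1.59 in the set without it. WRKY65 was higher by 1.35 (adjusted p = 0.0211), at 0.24 in the set with the note and -1.15 in the set without it. Neither gene was called at 24 h over both sets.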

How the results depend on the processing

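Over 61 calls of a member in a comparison, 1297 of 1505 values recomputed under alternatives or with 1 library left out kept the call, 208 lost it and 0 reversed. Calls kept throughout numbered 24: 4 at 3 h, 9 at 24 h, 7 between 24 h and 3 h, 3 in rpn10-1 and 1 in rpn12a-1.

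Counts of called members moved as follows. At 3 h the count was 5 in the set without the technical replicate note, against 10. In the set with it, 10 members were called at 24 h, against 20, and 8 between 24 h and 3 h, against 16. The set without it went the other way between 24 h and 3 h, with 23 called. With no filter on low counts, 17 were called in rpn10-1, 9 in rpn12a-1 and 12 between rpn12a-1 and rpn10-1, against 10, 3 and 2. In rpn12a-1, DESeq2 called 5, and in a fit of the 2 mutants alone 0 were called between them (8 at an unadjusted p under 0.05), with 3 by DESeq2 over all groups. The cause was not tested. Calls of members were lost for 15 of 61 with no library set term, 11 of 58 in fits of the groups compared alone, 21 of 47 in the set with the note, 14 of 56 in the set without it and 1 of 61 with DESeq2 size factors. No call was lost by the DESeq2 test or under other filters.

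With 1 library left out, counts ranged from 7 to 12 at 3 h, 14 to 22 at 24 h, 12 to 17 between these times, 4 to 13 in rpn10-1, 1 to 7 in rpn12a-1 and 0 to 4 between the mutants.

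With the replicate block in place of the library set, counts were 9 at 3 h, 19 at 24 h, 14 between these times, 9 in rpn10-1, 5 in rpn12a-1 and 3 between the mutants. It lost 8 of the 61 calls, among them WRKY15 between the mutants (0.45, adjusted p 0.18), WRKY46 in rpn12a-1 (1.31, adjusted p 0.18), WRKY54 in rpn10-1 (2.05, adjusted p 0.053), and WRKY1 and WRKY2 between 24 h and 3 h (adjusted p 0.055 and 0.063). It called WRKY62 (-3.87, adjusted p 0.016) and WRKY38 (-2.59, adjusted p 0.013) between the mutants. At 3 h, WRKY15 was newly called with this block (0.40, adjusted p 0.049). In the comparisons other than 3 h against untreated, the libraries share a number without a shown pairing. Crossing the pairs between the mutants gave 3 calls.

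Over all genes, counts also moved by over 1.5 times, to 1309 at 3 h in the set without the note, 3686 at 24 h and 1986 between 24 h and 3 h in the set with it, and 5549 between 24 h and 3 h in the set without it. In rpn10-1 they were 2725 with no set term and 1904 in a fit of the 2 groups. In rpn12a-1 they were 1983 with no filter and 2141 with the replicate block, and between the mutants 2137 by DESeq2, 3025 with no filter, 766 with no set term and 267 in a fit of the 2 groups.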
